A study of Mus musculus with 8 samples.

Results

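The genes described here encode the core of the inflammasome, a cytosolic protein complex that turns danger signals into cleaved interleukin-1 family cytokines and lytic cell death. The members were chosen by gene name and comprise 6 sensors (*Nlrp3*, *Nlrc4*, *Naip2*, *Naip5*, *Nlrp1b* and *Aim2*), 1 adaptor (*Pycard*), 2 caspases (*Casp1* and *Casp4*) and 1 pore-forming gene (*Gsdmd*). All 10 were found among the 23356 genes of the expression table, all 10 had a Cuffdiff status of OK, and all 10 were among the 11397 genes that reached 1 FPKM in at least 1 group.

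RNA-seq was performed on bone marrow-derived dendritic cells (BMDCs) in 8 libraries, 2 per group. The 4 groups were untreated WT C57BL/6N cells, WT cells given 100 nM ansamitocin-P3 for 5 h, untreated cells lacking GEF-H1 (GEF-H1-/-, an *Arhgef2* knockout on the same background), and GEF-H1-/- cells given the same dose for the same time. Ansamitocin-P3 is a maytansinoid that binds tubulin and destabilizes microtubules, and GEF-H1 is a guanine nucleotide exchange factor that microtubules hold inactive. The cells were grown from marrow with GM-CSF and IL-4, which yields a mixed myeloid culture, and no sort before RNA isolation is described.

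The deposited FPKM (fragments adjusted for the length of the transcript and the size of the library) are pooled: Cuffdiff merged both libraries of a group into a single value and gave a 95% interval for it. They carry no SD, n or p-value, so no difference below was tested over samples, and the interval is the error given. A gene was called higher or lower where the intervals of both groups did not overlap, and a second rule asked for a log2 ratio of FPKM + 1 over 1 or under -1. The added 1 makes ratios of weakly expressed genes smaller. The study's methods name a target depth, and the depth reached in each library was not determined here.

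Sensors of the NLR and AIM2-like families recognise microbial or damage signals and recruit the adaptor ASC, the product of *Pycard*, which polymerises and gathers pro-caspase-1. Caspase-1 cleaves pro-IL-1β, pro-IL-18 and gasdermin D, and the freed end of gasdermin D forms pores in the plasma membrane. Caspase-4 of the mouse, also called caspase-11, binds cytosolic lipopolysaccharide and cleaves gasdermin D directly. In dendritic cells and macrophages, synthesis of NLRP3 and pro-IL-1β is known as the priming step that precedes assembly.

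*Arhgef2* was at 42.3 FPKM (95% interval 34.5 to 49.98) without and 45.9 (36.9 to 54.9) with the drug in WT DCs. In GEF-H1-/- DCs it was at 4.59 (3.54 to 5.63) and 4.16 (3.22 to 5.11). The targeted gene therefore followed the group names. The columns for WT cells name no genotype and were assigned by elimination.

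In untreated WT DCs the adaptor had the highest level of the 10 genes on the FPKM scale, which is corrected for length. *Pycard* stood at 100.2 FPKM, *Gsdmd* at 56.4 and *Casp1* at 29.4, and the intervals of these neighbours did not overlap. *Naip2* (17.7), *Nlrp3* (16.5) and *Aim2* (15.0) came next and overlapped their neighbours among these 3, clear of *Casp4*. *Casp4* (8.64) and *Naip5* (6.75) overlapped each other, as did *Nlrc4* (4.47) and *Nlrp1b* (3.19), the lowest. In treated WT DCs this order changed at the top: *Gsdmd* at 47.9 and *Pycard* at 46.8 FPKM overlapped, and *Naip2* (28.6) and *Nlrp3* (28.4) stood above *Casp1* (23.7), with overlapping intervals. In both GEF-H1-/- groups *Pycard* kept the highest level, clear of *Gsdmd*.

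**Figure D1:**
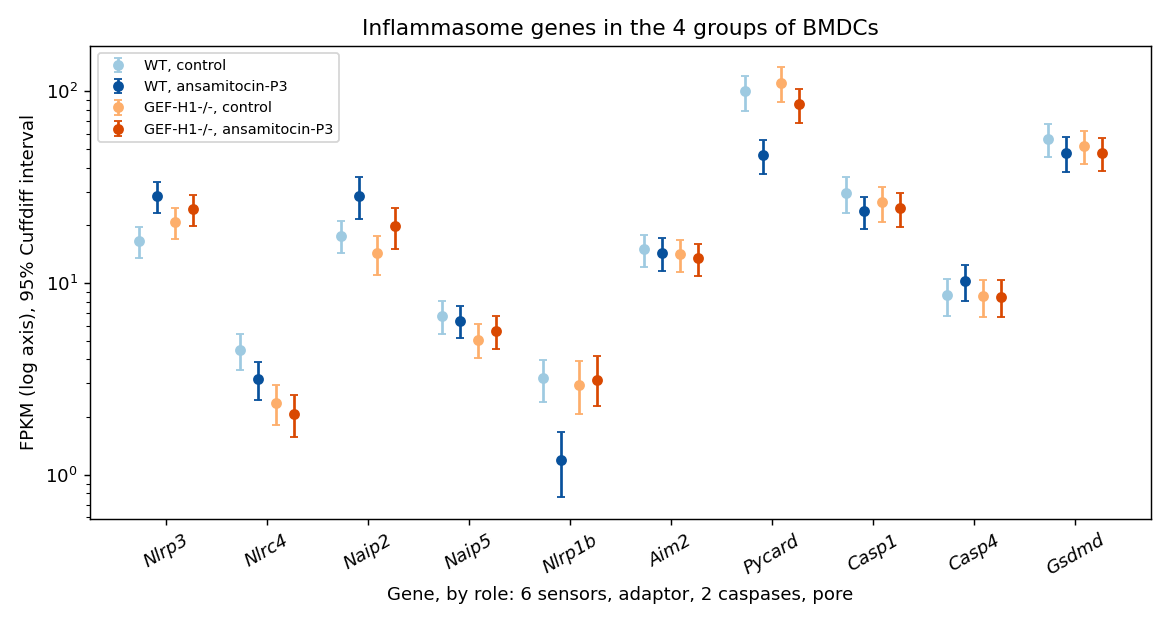
FPKM of the 10 inflammasome genes on a log axis in the 4 groups, with 95% Cuffdiff intervals as bars; each point is 1 pooled value. *Pycard* at 46.8 FPKM and *Nlrp1b* at 1.20 FPKM in treated WT DCs lie below their other 3 values.

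The first comparison sets WT DCs given ansamitocin-P3 against untreated WT DCs. Among the members, 2 of 10 were called higher (*Nlrp3* and *Naip2*), against 9.19% of all genes over the filter, and 2 of 10 lower (*Pycard* and *Nlrp1b*), against 7.58%. The median log2 ratio of the 10 was -0.15, beside 0.00 over all 11397 genes. With all groups set to the same total FPKM, these medians were -0.41 and -0.24. By the second rule 0 members were higher, against 3.66% of all genes, and 1 was lower (*Pycard*), against 1.28%. With so few genes these shares are descriptions only.

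*Nlrp3* encodes the sensor of membrane damage and ion efflux, and lies at chr11:59542686-59566956 (GRCm38). It was at 16.5 FPKM (13.5 to 19.6) in untreated and 28.4 (23.2 to 33.7) in treated WT DCs, and at 20.9 (17.0 to 24.7) and 24.4 (20.0 to 28.9) in GEF-H1-/- DCs. Treated WT cells were thus clear of untreated WT cells, while both GEF-H1-/- values lay between them and overlapped each other. On the log2 scale the drug's ratio was 0.75 in WT cells and 0.22 without GEF-H1.

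*Naip2* and *Naip5* encode receptors that bind bacterial type III secretion rod protein and flagellin and hand them to NLRC4. *Naip2* was at 17.7 FPKM (14.4 to 21.0) and 28.6 (21.6 to 35.6) in untreated and treated WT DCs, and at 14.3 (10.97 to 17.7) and 19.8 (15.2 to 24.5) in GEF-H1-/- DCs. The WT intervals cleared each other narrowly, and those of the GEF-H1-/- groups overlapped, with log2 ratios of 0.66 and 0.44. *Naip5*, its neighbour on chromosome 13 at a distance of 9648 bases, was at 6.75, 6.37, 5.08 and 5.64 FPKM in the same order of groups, all overlapping. Their partner *Nlrc4* was at 4.47 FPKM (3.53 to 5.42) in untreated and 3.17 (2.45 to 3.89) in treated WT DCs, and at 2.37 (1.81 to 2.93) and 2.09 (1.58 to 2.60) in GEF-H1-/- DCs. The drug's intervals overlapped in both genotypes, whereas untreated GEF-H1-/- DCs lay below untreated WT DCs.

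*Nlrp1b* encodes a sensor that is activated by proteolysis of its own chain, and lies at chr11:71153102-71230733. It was at 3.19 FPKM (2.40 to 3.96) in untreated and 1.20 (0.765 to 1.66) in treated WT DCs, and at 2.95 (2.07 to 3.91) and 3.13 (2.28 to 4.18) in GEF-H1-/- DCs. Treated WT DCs stood alone, at 37.7% of the untreated level, and the other 3 values overlapped. The drug's log2 ratio was -0.93 for WT cells and 0.07 for cells without GEF-H1. *Aim2*, which encodes a receptor for cytosolic DNA, was at 15.0, 14.4, 14.1 and 13.5 FPKM, the narrowest range of the sensors.

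*Pycard* lies at chr7:127991373-127993867. It was at 100.2 FPKM (79.4 to 119.9) in untreated and 46.8 (37.2 to 56.0) in treated WT DCs, and at 110.7 (87.8 to 133.4) and 86.2 (68.4 to 103.5) in GEF-H1-/- DCs. Treated WT DCs lay below each of the other groups with no overlap, at 46.7% of the untreated level. In GEF-H1-/- DCs the treated value was 77.8% of the untreated one, with overlapping intervals, and the log2 ratios were -1.08 and -0.36.

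The level of *Nlrp3* relative to *Pycard*, both per length, was 16.5% in untreated and 60.8% in treated WT DCs, and 18.9% and 28.4% in GEF-H1-/- DCs. This ratio is taken within a group, so no scaling between groups enters it. It was chosen after the values were seen, and it describes mRNA, not protein.

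Neither caspase nor the pore gene was called in any comparison. *Casp1* was at 29.4, 23.7, 26.4 and 24.6 FPKM, in the order untreated WT, treated WT, untreated GEF-H1-/- and treated GEF-H1-/-. *Casp4*, which lies 1579 bases from *Casp1* on chromosome 9, was at 8.64, 10.3, 8.54 and 8.50 FPKM. *Gsdmd* was at 56.4, 47.9, 52.1 and 47.8 FPKM. For none of these 3 genes were any intervals compared here apart. As deposited, their log2 ratios with the drug lay between -0.30 (*Casp1*) and 0.22 (*Casp4*) in WT DCs. The error of each of these ratios was larger than the ratio, and was 0.40 for both *Casp1* and *Gsdmd*. With all groups set to the same total FPKM, the ratios were -0.57 (*Casp1*), -0.50 (*Gsdmd*) and -0.03 (*Casp4*), none called by the interval rule.

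**Figure D2:**
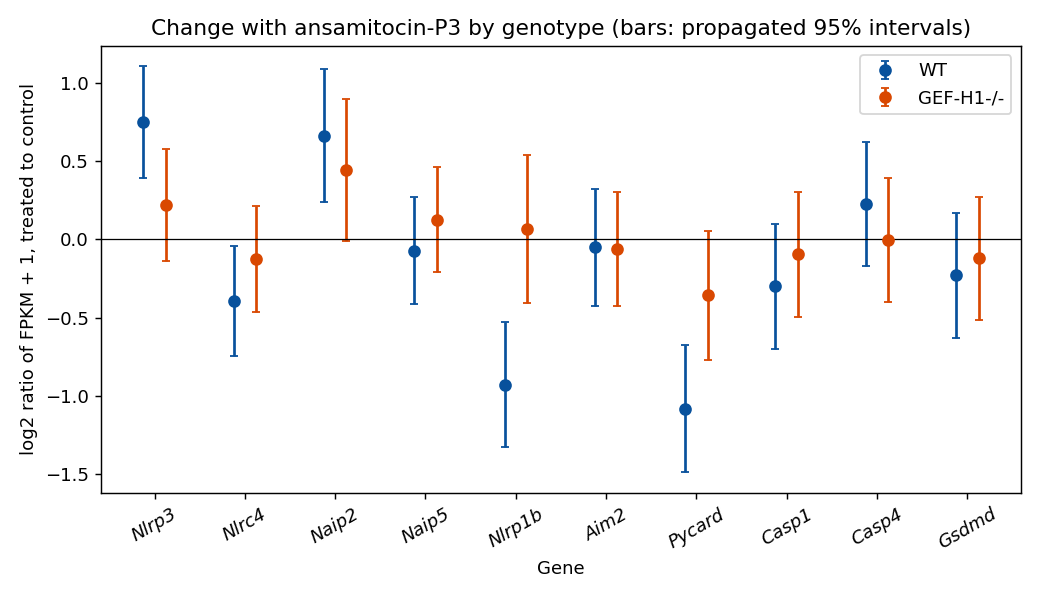
log2 ratio of FPKM + 1, treated to untreated, for each gene in WT and GEF-H1-/- DCs, with 95% intervals propagated from those of Cuffdiff. *Nlrp1b* (-0.93 and 0.07) and *Pycard* (-1.08 and -0.36) differ most between the genotypes.

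In GEF-H1-/- DCs the drug moved 0 of 10 members in either direction by the interval rule, where 2.75% of all genes were higher and 0.956% lower. The second rule also gave 0 in both directions, against 0.807% and 0.272%. The median log2 ratio of the members was -0.03, beside -0.01 over all genes. With background shares this low, a count of 0 among 10 genes says little about the members.

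Between the untreated groups, 1 of 10 members was lower in GEF-H1-/- DCs (*Nlrc4*), against 1.88% of all genes, and 0 were higher, against 2.86%. *Nlrc4* in GEF-H1-/- DCs was at 53.0% of WT. The second rule called 0 members, with backgrounds of 1.26% higher and 0.614% lower. Between the treated groups, 2 of 10 were higher in GEF-H1-/- DCs (*Nlrp1b* and *Pycard*), against 7.02%, and 0 lower, against 6.73%; by the second rule 0 were called, against 2.0% and 2.06%. Each of these comparisons shares a group with the drug comparisons, so the same *Pycard* and *Nlrp1b* values of treated WT DCs stand behind both calls.

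The difference of the drug effects, GEF-H1-/- minus WT, was called by size alone, and 0 of 10 members passed 1 or -1, where 0.535% of all genes were higher and 1.36% lower. *Nlrp1b* came nearest, at 0.99. An error for this difference was added after the values were seen, by propagating the intervals of all 4 groups. The interval then excluded 0 on the higher side for 2 of 10 members, against 3.52% of all genes, and on the lower side for 1, against 4.77%. *Nlrp1b* differed by 0.99 (0.38 to 1.61), *Pycard* by 0.72 (0.15 to 1.30) and *Nlrp3* by -0.53 (-1.04 to -0.02). For *Naip2* the difference was -0.22 (-0.84 to 0.40), so these data do not separate its response in the 2 genotypes. This interval rests on the errors of pooled values and is not a test over samples.

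These directions depend in part on how the groups are scaled. The sum of FPKM was 609360 in untreated and 739523 in treated WT DCs, and 599331 and 617423 in GEF-H1-/- DCs. Setting all groups to the same total shifted the median log2 ratio of all genes in WT by -0.24, and turned the split of all calls from 1047 higher and 864 lower to 566 and 1972. Between the treated groups the split went from 800 and 767 to 1609 and 362. For the difference of the drug effects, called by size, it went from 61 and 155 to 118 and 95. *Pycard* and *Nlrp1b* stayed lower in treated WT DCs (log2 ratios -1.36 and -1.09). *Nlrp3* (0.48) and *Naip2* (0.39) stayed above 0 but their intervals then overlapped, and *Nlrc4* (-0.61) was called lower. With only loci of 300 bases or longer in the total, *Nlrp3* was called (0.52) and *Naip2* was not (0.43). The difference between genotypes for *Nlrp3* became -0.30 (-0.81 to 0.20) with the same total over all genes, no longer clear of 0, while those of *Pycard* (0.96) and *Nlrp1b* (1.13) were clear of it. With the groups set to the same median ratio, all 4 members called in WT DCs stayed called. The calls of *Pycard* and *Nlrp1b* thus held under each scaling tried. The call of *Nlrp3* was lost only with the same total over all genes, and that of *Naip2* with either same total. The most abundant entry in the total over all genes was *Mir5109*, at 31727 FPKM in untreated and 57890 in treated WT DCs.

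**Figure D3:**
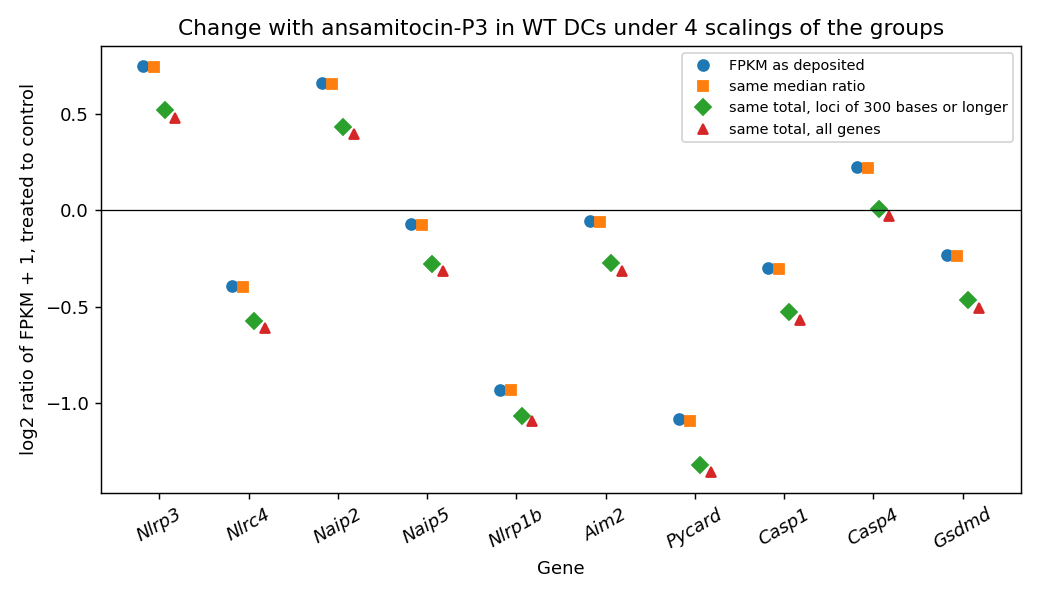
log2 ratio of FPKM + 1 with ansamitocin-P3 in WT DCs for each gene, with the groups as deposited, scaled to the same median ratio, or scaled to the same total. *Casp4* crosses 0 (0.22 as deposited, -0.03 with the same total over all genes), and *Pycard* and *Nlrp1b* lie furthest below 0 in each scaling.

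*Nlrp1b* sits in a cluster of related genes on chromosome 11. *Nlrp1a*, at a distance of 8398 bases, was at 5.92 and 3.38 FPKM in untreated and treated WT DCs and at 4.62 and 4.15 in GEF-H1-/- DCs, and was also called lower with the drug in WT. The pseudogene *Nlrp1c-ps*, at 11697 bases, was at 0.941 and 0.364 FPKM in WT and 0.746 and 0.857 in GEF-H1-/- DCs, below the filter in each group. All 3 genes of the cluster were thus lowest in treated WT DCs. Of the 35-base stretches in *Nlrp1b* transcripts (the read length), 4.52% also occur in transcripts of other genes, 3.39% in *Nlrp1a*.

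The *Naip* genes share more. Of the 35-base stretches of *Naip5* transcripts 48.6% occur in other genes, most of them in *Naip6*, and of those of *Naip2* 29.0%, most of them in *Naip1*. *Naip6* was at 4.64, 3.20, 3.32 and 3.34 FPKM and *Naip7*, which has the same locus in the table, at 1.03, 0.911, 0.556 and 0.874. How reads were shared out among these genes is not stated, so their values are uncertain. *Nlrp3*, *Pycard*, *Casp1* and *Gsdmd* shared 0 such stretches, and *Casp4* 0.883%.

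**Figure D4:**
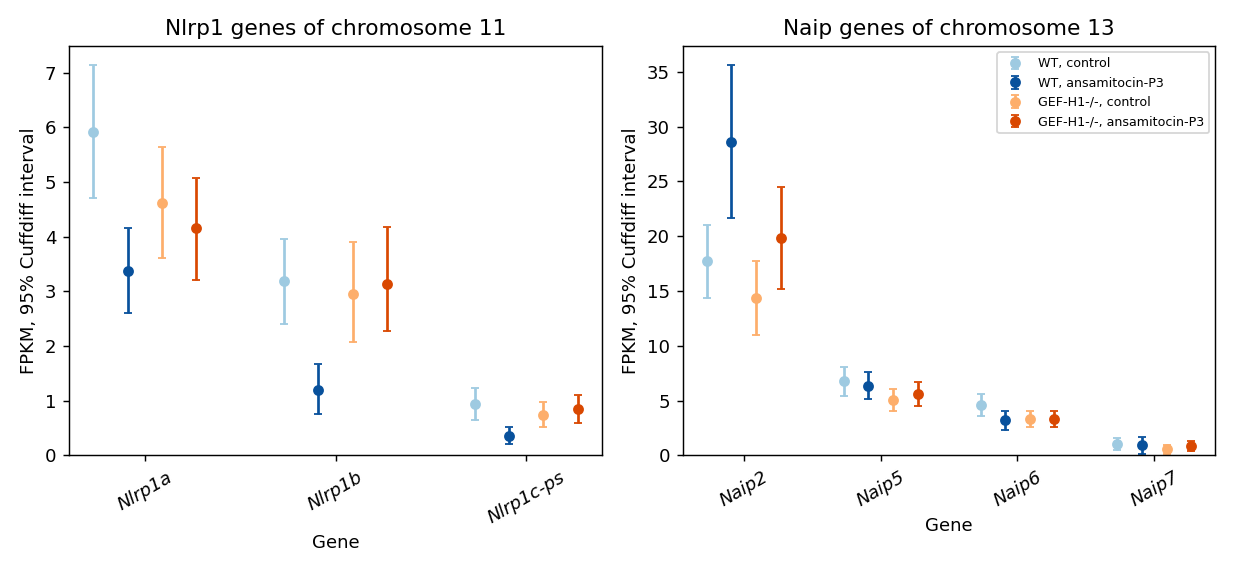
FPKM with 95% Cuffdiff intervals of the *Nlrp1* genes of chromosome 11 and the *Naip* genes of chromosome 13 in the 4 groups. The *Nlrp1* genes are lowest in treated WT DCs (3.38, 1.20 and 0.364 FPKM), and *Naip2* (28.6 FPKM) rises apart from *Naip5* (6.37 FPKM).

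Promoter sequences are shown for the members whose levels moved with the drug in WT DCs. RefSeq windows (GRCm38.p6), from 250 bases before to 50 after the start, were found for 9 of 10 members, and where a gene had more than 1, that nearest to the start of its locus in the table was used. Both strands were searched for TGANTCA (AP-1), TGACGTCA (CRE), GAAANNGAA (ISRE-like), TTCNNNGAA (STAT) and GAGGAAG (PU.1-type), with no exclusion of overlaps. The windows are chr7:127993818-127994117 (*Pycard*, minus strand), chr11:71230684-71230983 (*Nlrp1b*, minus strand) and chr11:59542436-59542735 (*Nlrp3*, plus strand), 5′ to 3′ in the gene's direction, with motif matches in capitals.
Pycard: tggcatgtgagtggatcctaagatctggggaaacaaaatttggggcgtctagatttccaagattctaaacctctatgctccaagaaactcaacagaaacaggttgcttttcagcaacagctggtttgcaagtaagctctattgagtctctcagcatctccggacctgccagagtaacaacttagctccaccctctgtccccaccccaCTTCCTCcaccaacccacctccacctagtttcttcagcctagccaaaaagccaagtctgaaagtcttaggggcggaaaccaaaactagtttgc
Nlrp1b: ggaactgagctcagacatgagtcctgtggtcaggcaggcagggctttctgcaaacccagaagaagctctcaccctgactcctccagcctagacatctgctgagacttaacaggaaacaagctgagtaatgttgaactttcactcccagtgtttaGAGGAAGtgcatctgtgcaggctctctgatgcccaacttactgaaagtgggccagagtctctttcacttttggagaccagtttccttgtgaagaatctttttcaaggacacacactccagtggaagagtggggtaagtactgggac
Nlrp3: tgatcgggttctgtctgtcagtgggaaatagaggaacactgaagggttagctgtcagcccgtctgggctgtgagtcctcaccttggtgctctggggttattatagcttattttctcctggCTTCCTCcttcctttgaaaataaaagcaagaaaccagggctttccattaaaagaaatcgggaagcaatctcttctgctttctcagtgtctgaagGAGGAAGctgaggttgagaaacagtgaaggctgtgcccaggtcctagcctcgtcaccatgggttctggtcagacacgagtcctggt
All capitals in these 3 windows are the PU.1-type motif. It stood in 4 of 9 member windows, those of *Pycard*, *Nlrp1b*, *Nlrp3* and *Aim2*, and in 13.6% of all 32851 windows. The holders include genes that were lower, higher and not called in treated WT DCs. TGANTCA, TGACGTCA and TTCNNNGAA stood in 0 of 9 member windows, beside 7.81%, 1.79% and 8.30% of all windows, and GAAANNGAA in 1 (*Naip2*), beside 8.56%. A match describes letters and does not show binding.

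The windows of *Naip2* (chr13:100202073-100202372, minus strand) and *Naip5* (chr13:100247287-100247586, minus strand) are set side by side because only the former was called higher. Capitals mark the longest stretch both hold, of 34 bases.
Naip2: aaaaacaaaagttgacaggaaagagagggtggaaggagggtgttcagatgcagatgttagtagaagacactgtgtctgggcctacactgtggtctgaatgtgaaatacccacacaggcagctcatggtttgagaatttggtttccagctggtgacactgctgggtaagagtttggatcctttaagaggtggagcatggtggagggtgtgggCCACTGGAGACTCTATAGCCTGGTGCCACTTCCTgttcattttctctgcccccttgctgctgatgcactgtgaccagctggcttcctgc
Naip5: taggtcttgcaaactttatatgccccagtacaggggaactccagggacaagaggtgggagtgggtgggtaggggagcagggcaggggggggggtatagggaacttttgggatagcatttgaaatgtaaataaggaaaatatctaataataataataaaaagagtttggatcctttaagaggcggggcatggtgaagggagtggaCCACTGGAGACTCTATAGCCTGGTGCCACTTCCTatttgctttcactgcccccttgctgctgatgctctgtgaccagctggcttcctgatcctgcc
The call of *Naip2* was lost with either same total, and the values of both genes are uncertain because their transcripts share stretches with other genes. Whether this shared sequence bears on their values was not tested.

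Other genes of the pathway were taken from lists, 99 genes in all. Of the 75 over the filter, 18 were higher and 10 lower with the drug in WT DCs, against 9.19% and 7.58% of all genes, and 8 and 7 in GEF-H1-/- DCs, against 2.75% and 0.956%. The same shares of all genes stand behind the counts of each list below. Their median log2 ratio was -0.02 for WT and -0.03 for GEF-H1-/- cells. Of the substrates and their partners, 5 of 8 were called higher in WT and 2 of 8 in GEF-H1-/- DCs, with 0 lower.

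*Il1b*, the main caspase-1 substrate, was at 25.2 and 242.1 FPKM in untreated and treated WT DCs and at 22.9 and 56.2 in GEF-H1-/- DCs. *Il1a* was at 6.75 and 42.1, then 8.63 and 15.0 FPKM, and *Il1rn*, the receptor antagonist, at 101.0 and 778.0, then 197.4 and 273.5. All 3 were higher with the drug in WT DCs, and *Il1b* and *Il1a* but not *Il1rn* also in GEF-H1-/- DCs. Between the untreated groups *Il1rn* was already called higher in GEF-H1-/- DCs, while *Il1b* and *Il1a* were not called. *Il18*, the other classical substrate, was at 1.40, 1.78, 1.17 and 1.58 FPKM with no intervals apart. As a level per length, *Il1b* was 85.7% of *Casp1* in untreated and 1020% in treated WT DCs, and 86.6% and 228% in GEF-H1-/- DCs, a ratio also chosen after the values were seen.

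Regulators were higher in 9 of 31 and lower in 2 of 31 with the drug in WT DCs, and higher in 4 in GEF-H1-/- DCs. *Irf8* was at 18.8 and 96.8 FPKM in WT and 24.8 and 103.3 in GEF-H1-/- DCs, called higher in both. *Tlr4*, the receptor that primes NLRP3 in response to lipopolysaccharide, was at 21.6 and 57.3, then 23.7 and 37.9 FPKM, also called in both. *Serpinb2* was at 3.04 and 11.4, then 7.44 and 9.56. The NLRP3 partners *Nek7* (36.2, 33.5, 40.0 and 38.9 FPKM) and *Txnip* (129.0, 144.7, 157.8 and 184.6) had no intervals apart with the drug. *Trim30a* and *Ptpn22* were lower in WT DCs, with log2 ratios of -0.71 and -0.61. *Mavs* was at 17.8 and 9.42 FPKM in WT DCs without being called.

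Among other sensors, 1 of 8 was higher in WT (*Mefv*, 2.12 and 4.91 FPKM) and 2 lower (*Nlrp1a* and *Ddx58*, the latter 7.46 and 4.59). *Nlrp10* and *Zbp1* were not called with the drug. The AIM2-like receptors held 2 of 6 higher in WT, *AI607873* (3.32 and 5.50 FPKM) and *Ifi205* (0.225 and 1.25). In GEF-H1-/- DCs 1 of 6 was higher, *AI607873* (2.48 and 4.26 FPKM). *Mndal* was not called. Of the other caspases and the related *Cflar*, *Cflar* was higher in WT (25.4 and 46.4 FPKM) and in GEF-H1-/- DCs (23.9 and 37.6). *Casp8* (47.6, 57.3, 39.1 and 39.7 FPKM), *Casp2* and *Casp9* were not called.

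The guanylate-binding and IRG proteins open pathogen vacuoles and expose ligands to caspase-11 and AIM2. In WT DCs 5 of 13 were called lower, against 7.58% of all genes, and 0 higher, with a median log2 ratio of -0.53. In GEF-H1-/- DCs 7 were lower, against 0.956%, and 0 higher, with a median of -0.52. Between the untreated groups 5 were lower in GEF-H1-/- DCs, against 1.88%, and 0 higher. *Gbp5*, which is linked to NLRP3, was at 12.8 and 6.04 FPKM in WT and 9.64 and 5.33 in GEF-H1-/- DCs. *Gbp7* and *Gbp9* followed, with log2 ratios of -0.94 and -0.96 in WT and -0.61 and -0.70 in GEF-H1-/- DCs. Unlike *Pycard* and *Nlrp1b*, these were called in both genotypes. Of the gasdermins other than *Gsdmd*, *Dfna5* (gasdermin E) alone passed the filter, at 11.1, 14.1, 12.5 and 14.2 FPKM. *Ninj1*, which mediates membrane rupture, was at 39.5, 63.1, 64.8 and 67.3 FPKM, called higher in untreated GEF-H1-/- against untreated WT DCs.

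**Figure D5:**
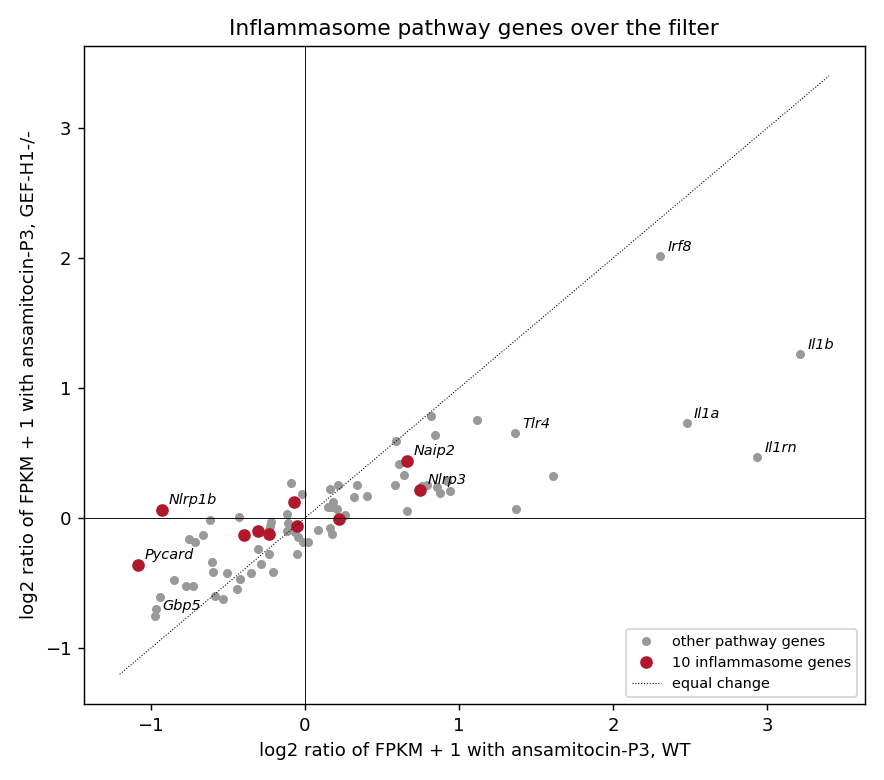
log2 ratio of FPKM + 1 with ansamitocin-P3 in WT (horizontal) and GEF-H1-/- DCs (vertical) for the 10 inflammasome genes and 75 other pathway genes; the dotted line marks equal change. *Il1b*, *Il1a* and *Il1rn* lie far below the line, *Irf8* near it, and *Nlrp1b* and *Pycard* above it.

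Genes whose 4 values ran closest to a member were sought among 8894 genes of at least 5 FPKM, by Euclidean distance of centred log2 values over the 4 groups. For *Nlrp3* they were *Mmp8* (distance 0.07), *Slc12a4* (0.08) and *Ubtd2* (0.09). For *Naip2* they were *Usp32* (0.02), *Myo10* (0.02) and *Sav1* (0.05). For *Pycard* they were *Shmt1* (0.04), *Kank3* (0.05) and *Dhodh* (0.07). With 4 values per gene many genes lie this close: 100, 180 and 51 were within 0.2 of *Nlrp3*, *Naip2* and *Pycard*.

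Within 50 kb, *Aim2* had 0 neighbours in the table. *Prss36*, at 44648 bases from *Pycard* and below the filter, was at 0.481 and 0.159 FPKM in WT DCs, with intervals apart. *Nlrp3* had 5 neighbours, with *Zkscan17* over 5 FPKM and not called. *Nlrc4* had 3 (*Slc30a6*, *Spast* and *Yipf4*), none called. *Naip2* had 4 (*Bdp1*, *Naip5*, *Serf1* and *Smn1*), none called, and *Gsdmd* had 5, of which *Eef1d* and *Zc3h3* were not called and *Pycrl* was lower in treated WT DCs. *Naip5* had 3 (*Naip2* over 5 FPKM), *Nlrp1b* 2 (*Nlrp1a* over 5 FPKM), and *Casp1* and *Casp4* 2 each, one another and *Casp12*, which was under 1 FPKM.

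The makeup of the cultures was read from marker lists. Dendritic cell markers (9 of 9 in the table, none at 0) summed to 5711, 7473, 4820 and 5327 FPKM in untreated WT, treated WT, untreated GEF-H1-/- and treated GEF-H1-/- DCs, led by *Cd74*. With the drug, 2 of 9 were higher (*Ccr7* and *Irf4*) and 2 lower (*Flt3* and *Cd209a*) in WT DCs, and 1 was higher (*Ccr7*) and 0 lower in GEF-H1-/- DCs. Neutrophil markers (8 of 9) summed to 32440, 38309, 21868 and 22277 FPKM, led by *S100a8*. In each group the FPKM of *S100a8* lay above its own interval (19401 against 9356 to 16474 in untreated WT), so its level, its call and these sums are uncertain. Macrophage markers (9 of 9) summed to 270.2, 203.8, 406.2 and 372.8 FPKM, led by *Cd68*, and mast cell or basophil markers (5 of 5) to 188.8, 193.2, 368.6 and 353.4, led by *Prss34*.

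In untreated GEF-H1-/- against untreated WT DCs, 4 of 9 macrophage markers were higher, beside 2.86% of all genes, and 0 lower, beside 1.88%. They include *C1qa* (4.22 and 29.2 FPKM in WT and GEF-H1-/- DCs), *C1qb* (26.0 and 67.4) and *C1qc* (14.2 and 40.1). Of the mast cell or basophil markers 4 of 5 were higher and 0 lower, of the neutrophil markers 2 of 8 higher and 4 lower, and of the dendritic cell markers 1 of 9 higher and 0 lower. Between the treated groups 4 of 9 macrophage markers were higher in GEF-H1-/- DCs, beside 7.02% of all genes, and 0 lower, beside 6.73%. There 4 of 5 mast cell or basophil markers were higher and 0 lower. Neutrophil markers were higher in 1 of 8 and lower in 4, and dendritic cell markers higher in 2 of 9 and lower in 0.

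The remaining lists were low or led by 1 gene. T cell markers (4 of 4) summed to 19.1, 21.2, 12.9 and 13.1 FPKM, led by *Cd8a*, and B cell markers (3 of 3) to 6.43, 4.41, 4.13 and 3.06, led by *Cd79a*. NK cell markers (3 of 3) summed to 84.8, 100.8, 33.1 and 29.5, nearly all *Gzma*, with *Ncr1* at 0.123 in untreated WT DCs. Erythroid markers (3 of 4) summed to 6.01, 11.4, 1.98 and 2.68, led by *Hbb-b1*. Of the markers in these 4 lists over the filter, *Cd8a*, *Gzma* and *Hbb-b1* were lower in untreated GEF-H1-/- than WT DCs and 0 higher, and *Hbb-b1* was higher with the drug in WT DCs. None of the listed markers was at 0 in any group.

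The marker differences between the untreated groups accompany the lower *Nlrc4* of untreated GEF-H1-/- DCs. Those between the treated groups accompany the higher *Pycard* and *Nlrp1b* of treated GEF-H1-/- DCs. The part of the markers in these differences was not tested. In WT DCs 2 of 9 macrophage markers were called lower with the drug, *Emr1* (35.9 and 20.4 FPKM) and *Mertk* (5.46 and 0.778), and 0 higher, beside the falls of *Pycard* and *Nlrp1b*. In GEF-H1-/- DCs *Mertk* was called lower (4.56 and 2.53 FPKM), and *Emr1* (36.9 and 29.6), *Pycard* and *Nlrp1b* were not called. The difference of the drug effects was 1.21 for *Mertk*, called higher by size, and 0.48 for *Emr1*, not called. The part of these markers was not tested either. In a bulk culture, fewer cells of a type and less RNA per cell cannot be told apart.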

How the data were processed

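Per the study's methods, the authors prepared stranded libraries from polyadenylated RNA, sequenced them as 35-base paired ends, and computed FPKM with Cuffdiff (1.05 per the submitters' processing notes, build mm10). The deposited table holds FPKM pooled over the 2 libraries of a group, with 95% bounds, also in FPKM (per the file headers), and a status. The annotation was not given in the sources used here.

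Log2 ratios of FPKM + 1 were computed for genes with status OK (107 genes were left out) and at least 1 FPKM in 1 group, with Python 3.11.15, numpy 2.4.6 and pandas 2.3.3. The design had a branch for separate libraries (limma), not run because the columns are pooled. Calls used non-overlapping intervals; the difference of drug effects used its size, and its propagated interval was added after seeing the data. The calculation was checked on simulated data. The members and lists were chosen with earlier results of these data known. Named genes were the members, *Arhgef2*, the 3 largest rises and falls per list over 5 FPKM, set pathway genes, neighbours within 50 kb, and the 3 nearest by distance; other named genes were chosen after their values were seen. Shared stretches used GENCODE M21 transcripts, promoters RefSeq; both analyses and the motifs were chosen after seeing the data. Some genes of the lists and neighbours are not reported here. The depth reached per library was not determined.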

Additional observations from a re-analysis of the deposited data

How the results depend on the processing

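No paired analysis was possible because the labels number the replicates but each deposited column pools both libraries of a group; for the same reason leaving out a replicate was not run. For the difference of drug effects, the planned change of call rule equals the rule used.

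Of 340 member values recomputed with other pseudocounts, filters and scalings, 337 moved by less than their propagated error, 3 moved by more and 0 called values changed sign. The 3 were *Nlrp1b*, in WT -1.34 with a pseudocount of 0.1 and -0.40 with 5, and between treated groups 0.39 with 5.

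By log2 ratio over 1 or under -1, the members called went from 4 to 1 in WT, from 1 to 0 between untreated groups and from 2 to 0 between treated groups; over all genes the counts went from 1911 to 563, 422 to 123 (GEF-H1-/-), 540 to 214 and 1567 to 463. At 5 FPKM, *Nlrc4* and *Nlrp1b* drop out, leaving 0 members between untreated groups (349 genes in all) and 1 between treated groups. For the difference of effects, 0 members became 1 (*Nlrp1b*) with a pseudocount of 0.1 or with either same-total scaling, and 3 by the propagated interval chosen after seeing the data; over all genes 216 became 387 with 0.1, 123 with 5 and 945 by that interval. With the same total over all genes, the median over the members went from -0.15 to -0.41 in WT. Between treated groups it went from -0.12 to 0.11, and for the difference of effects from 0.15 to 0.37. An error of this median is not given here. Low FPKM, as for *Nlrp1b*, limits precision.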
